A study of Mus musculus with 8 samples.

Results

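Actb and Actg1 encode the cytoplasmic beta- and gamma-actins. Peaks of N4-acetylcytidine (ac4C, an acetylated cytosine in RNA) on their mRNAs were read from 4 peak lists of osteoclast-forming mouse cells. A peak was assigned to a gene when it shared at least 1 base, on the minus strand, with a given span of mm39: 142888 to 142893 kb of chromosome 5 for Actb and 120236 to 120240 kb of chromosome 11 for Actg1. This gave 13 of the 105252 listed peaks, 11 for Actb and 2 for Actg1. Both genes were chosen by measured values of these same lists, namely the authors' peak scores and which lists held a peak. The ranks and the presence or absence of their peaks are therefore given as a description, with no test. No mm39 annotation was used, so the peaks could not be placed in exons, introns or UTRs; the RefSeq gene table at hand, of another build (GRCm38.p6), places Actb and Actg1 on the same chromosomes, 5 and 11. No mm39 sequence was at hand either, so none is printed.

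Actin monomers polymerise into the filaments that shape a cell. The beta and gamma forms are the 2 cytoplasmic actins of non-muscle cells, their proteins differ in only a few residues, and Actb mRNA is among the most abundant in most cell types. In osteoclasts, actin filaments build the podosomes and the ring that seals the resorbing cell to bone. ac4C is written on RNA by the acetyltransferase NAT10, and in mRNA it has been linked to stability and translation.

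The series compared wild-type (WT) cells with cells of Nat10 conditional knockout (CKO) mice. Both were bone marrow-derived monocytes kept for 3 days with RANKL, the cytokine that drives osteoclast formation. RNA was fragmented and precipitated with an ac4C antibody (IP), giving 4 IP and 4 input samples and from them 4 peak lists, WT 1, WT 2, CKO 1 and CKO 2. The design text asks what NAT10-written ac4C does in osteoclast formation. The sources used here give neither the Cre driver nor the age of the mice, and do not say whether lists of a genotype came from separate mice. The lists carry no gene names, so the loss of Nat10 and the markers of the labelled cell type were not checked here.

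Each list was called on its own and holds 24249 to 28087 peaks; the read depth behind them is unknown. The authors' score has no stated unit, so scores were compared only within a list, as ranks with 1 the highest. WT 2 stands apart from the other lists: 6.5% of its peaks were exactly 200 bases wide, against 24.0% to 24.4% in the others, and its median score in the authors' list was 29.5 against 71.3 to 116.5. The peak numbers, covered bases and edge spreads of the genes are given with and without it, while shares over all regions or loci use all 4 lists. Peaks are numbered in genome order in every list, and 37.2% (WT 2) to 54.7% (WT 1) of the numbers do not appear. These are called unlisted calls below, on the assumption that each missing number is a call that was left out of the list; the sources used here do not state this. The level of Actb or Actg1 mRNA cannot be read from these lists.

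Actb carried some of the highest-scored peaks of every list, in a stretch of 1632 bases. WT 1 held 3 Actb peaks, WT 2 held 2, CKO 1 held 3 and CKO 2 held 3. The mean was 2.5 ± 0.71 in WT and 3.0 ± 0.0 in CKO (SD, n = 2 lists each). The difference of 0.5 peaks is smaller than the spread between the WT lists, and it is 0 without WT 2 and 1 without WT 1. No list held a peak on the opposite strand of the span. The nearest minus-strand peaks outside it lay 15.2 to 29.7 kb below and 83.9 to 108.0 kb above, so the Actb peaks stood alone on their strand.

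**Figure D1:**
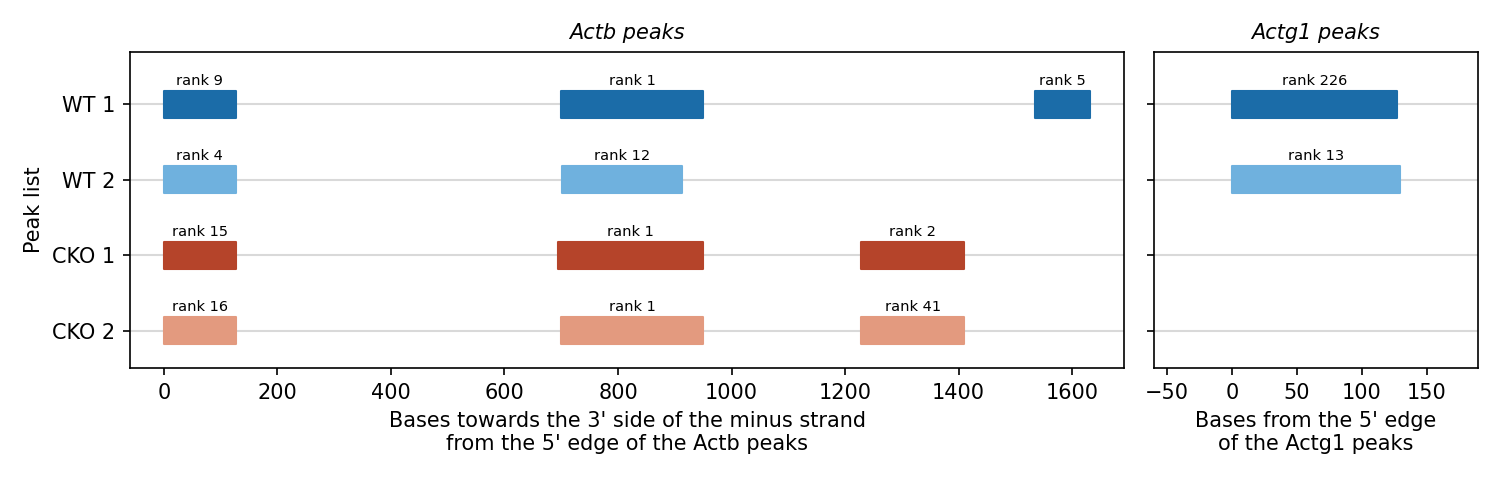
Peaks of Actb (left) and Actg1 (right) in the 4 lists, drawn as bars from their first to their last base; the x axis is the distance in bases from the 5′ edge of the gene's peaks, running towards the 3′ side of the minus strand, and the label is the rank of the peak's score in its list. All 4 lists share the Actb peaks at 0 to 127 bases and near 700 to 950 bases, while the peak at 1228 to 1410 bases is in the CKO lists and the Actg1 peak in the WT lists.

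The leading Actb region, 256 bases long at chr5:142890282-142890537, had a peak in all 4 lists. Its peak was the highest-scored of the whole list in WT 1, CKO 1 and CKO 2, and stood at rank 12 of 24851 in WT 2. In the authors' lists its score was 55425.5 in WT 1, 3221.78 in WT 2, 102760 in CKO 1 and 48795.8 in CKO 2. Within each list, that is 2.89 times the best score outside Actb in WT 1, 7.44 times in CKO 1, 4.38 times in CKO 2 and 0.194 times in WT 2. The gap to the rest of the list was thus wide in 3 lists, of both genotypes, and absent in WT 2. WT 2 was the only list whose first rank lay elsewhere, in a peak at chr10:117113756-117114092.

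The second shared Actb region, 127 bases long at chr5:142891105-142891231, lies on the 5′ side of the first, 567 bases from it. Its peak stood at rank 9 in WT 1, 4 in WT 2, 15 in CKO 1 and 16 in CKO 2. Both WT ranks were above both CKO ranks. How many of the regions with a peak in all 4 lists have such an order was not counted, so it is not read as a difference between genotypes. As percentiles the order held: 99.971 in WT 1, 99.988 in WT 2, 99.95 in CKO 1 and 99.938 in CKO 2. Scores entered the choice of the genes, and ranks within a list show no change in ac4C. Within a list, the 256-base region scored 12.6 times the 127-base region in WT 1, 23.9 times in CKO 1 and 14.5 times in CKO 2. In WT 2 this ratio was 0.418, so the order of both regions was turned there and in no other list.

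Regions with a peak in all 4 lists made up 0.964% of the 75389 regions formed by merging same-strand peaks that share a base. Actb held 2 of its 4 regions in that class, and this was part of how it was chosen. Of 27045 loci, formed by chaining same-strand peaks across gaps of up to 5000 bases, 28 held 2 or more such regions. Both Actb regions ranked within the first 20 of every list. Only 2 other regions of the series did so, chr8:123151637-123151826 on the minus strand and chr19:9961545-9961584 on the plus strand. The limit of 20 was set after the ranks had been seen.

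**Figure D2:**
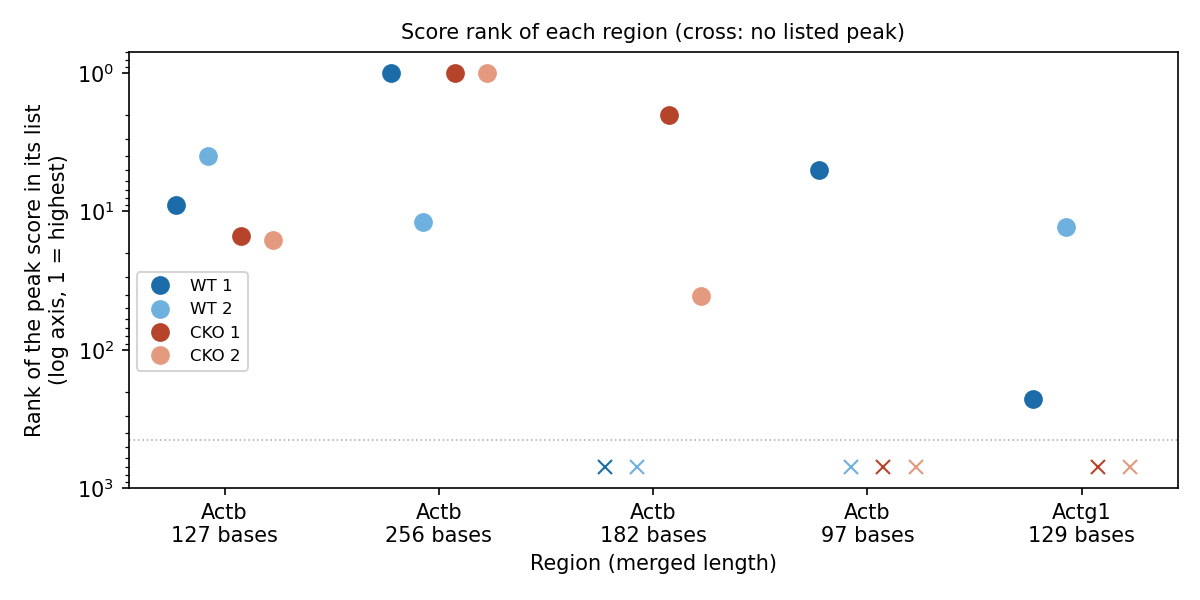
Rank of the peak score within its list (y axis, log scale, 1 at the top) for the 4 Actb regions, ordered from 5′ to 3′, and the Actg1 region, named by merged length on the x axis; each point is 1 list and a cross below the dotted line means that the list holds no peak there. The 256-base Actb region is at rank 1 in 3 lists and 12 in WT 2, and Actg1 is at rank 226 in WT 1 and 13 in WT 2.

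The edges of the Actb peaks recurred between lists more closely than is usual in these data. Edges did not enter the choice of the genes, but scores did, and the regions used for comparison were not matched for score. Whether the agreement of edges goes with a high score was not tested. The 127-base peak began and ended at the same base in all 4 lists. Among the 652 regions with 1 peak in every list, 3.07% (20 regions) had both edges in common. In the 256-base region the starts differed by up to 37 bases and the ends by up to 7, against medians of 51.5 and 53.5 bases over the 652 regions. All 4 peaks covered bases 142890319 to 142890530, which is 82.8% of the merged region, where the median over the 652 was 32.2%. The wider start spread came from WT 2: without it the starts differed by 1 base and the common part was 97.3%. Whether identical edges are the ends of exons, to which listed peaks were trimmed, was not tested.

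On the 3′ side of the Actb peaks, 1 region parted the lists by genotype. Both CKO lists held a peak of 182 bases at chr5:142889822-142890003, with identical edges, and neither WT list held one. It stood at rank 2 of CKO 1 and rank 41 of CKO 2, with scores of 13853.9 and 2273.95 in the authors' lists. In CKO 1 this was close to the best score outside Actb (1.0 times), and in CKO 2 it was 0.204 times that score. Regions in both CKO lists alone made up 3.64% of all regions, and of those with 1 peak per list 10.0% had both edges in common. Actb had 1 such region among 4, which was known when it was chosen.

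WT 1 had its own peak in the same part of the span, 125 genomic bases further to the 3′ side. This peak, 97 bases long at chr5:142889600-142889696, stood at rank 5 of WT 1 with a score of 8694.63 in the authors' list. No other list held it, as for 69.13% of all regions. When regions were merged across gaps of up to 200 bases, a setting added after the spacing had been seen, it joined the 182-base CKO region, and no Actb region was then in both CKO lists alone. WT 1 and both CKO lists thus all marked this 3′ part, at different genomic positions. How far apart these positions lie in the spliced mRNA was not tested. WT 2 held no peak 3′ of the 256-base region, so the WT lists differed from each other here.

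The peak numbers bear on whether a call was left out of a list at these places, under the assumption given above. In every list the Actb peaks carry consecutive numbers (46569 to 46571 in WT 1, 29701 to 29702 in WT 2, 45241 to 45243 in CKO 1 and 34503 to 34505 in CKO 2), so no number is missing between them. Around the 182-base region neither WT list had an unlisted call: its flanking peaks are numbered 46569 and 46570 in WT 1 and 29700 and 29701 in WT 2. Over 2736 regions in both CKO lists alone with listed flanks on the chromosome, this held for 34.1%. The intervals around the 182-base region were shorter than the medians over these regions. They were 0.585 kb against 24.5 kb in WT 1, and 17.5 kb against 42.2 kb in WT 2. A short interval leaves little room for a missing number, so the region and its class are not compared like for like. At the 97-base WT 1 region, WT 2 and CKO 2 had no unlisted call and CKO 1 had 1, somewhere in the 17.7 kb below its first Actb peak. Each peak name occurs once, so how far a call reached beyond its listed piece is not known.

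In bases covered by peaks, Actb had 475 in WT 1, 339 in WT 2, 565 in CKO 1 and 558 in CKO 2. The CKO lists both lay above the WT lists, with means of 561.5 ± 4.95 and 407.0 ± 96.17 bases (SD, n = 2 lists each). The difference was 154.5 bases, and it was 86.5 bases without WT 2 and 222.5 without WT 1. It follows in part from which lists held a peak, which was known when Actb was chosen, so the SDs are description only. Among the 4916 loci with a peak in every list, 15.9% had more covered bases in both CKO lists than in either WT list, so this ordering is common. An exact permutation test of 2 lists against 2 cannot give a p below 0.333, and none was run. The 3′ peak covered 97 bases in WT 1 and 182 in each CKO list, and WT 2 lacks such a peak. The peak of the 256-base region covered 251 bases in WT 1, 212 in WT 2, 256 in CKO 1 and 249 in CKO 2.

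Actg1 showed the opposite arrangement, a single region with a listed peak in WT cells alone. The peak spanned 127 bases in WT 1 (chr11:120238575-120238701) and 129 bases in WT 2 (chr11:120238573-120238701). Its score was 726.444 in WT 1, at rank 226 of 28065, and 3065.27 in WT 2, at rank 13 of 24851, in the authors' lists. CKO 1 and CKO 2 held 0 Actg1 peaks and 0 covered bases. The genotypes did not overlap, but the rank of the Actg1 peak differed widely between the WT lists. Without WT 2, the list that stands apart, Actg1 rested on the rank 226 peak of WT 1, with the CKO lists still at 0.

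Regions in both WT lists alone made up 4.26% of all regions, and loci with more peaks in both WT lists than in either CKO list made up 7.16% of 27045. The 5′ edge of the Actg1 peak was at the same base in both WT lists and the other edge differed by 2 bases. Of the 3191 regions in both WT lists alone with 1 peak per list, 77.7% shared at least 1 edge, so this agreement is usual. The WT 1 peak of Actg1 and the 127-base peak of Actb had the same width, while the WT 2 peak of Actg1 was 129 bases wide. Such a width is usual, since 46.1% of the WT 1 peaks were as wide or wider. Because the mRNAs of Actb and Actg1 are alike in their coding part, reads can match both. The sources used here do not say how such reads were placed, and whether they entered either peak was not tested.

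Read in the same way, the peak numbers leave room for an Actg1 call in the CKO cells that is not in their lists. In CKO 1 the listed peaks on either side of Actg1 are numbered 11531 and 11533, and in CKO 2 8895 and 8897. Each CKO list thus had exactly 1 unlisted call in the interval that holds Actg1, of 81.3 kb in CKO 1 and 85.1 kb in CKO 2. In the WT lists no number is missing between the Actg1 peak and its neighbours. Where in these intervals the unlisted calls lay, and on which strand, cannot be told from the lists; the RefSeq table of GRCm38.p6 has Bahcc1 and Fscn2 as the nearest protein-coding genes on either side of Actg1. Of 3205 regions in both WT lists alone with listed flanks, 40.8% had an unlisted call in the interval of both CKO lists, 37.0% in 1 of them and 22.2% in neither. The intervals around Actg1 were longer than the medians over these regions, 31.9 kb in CKO 1 and 45.6 kb in CKO 2. The lists therefore do not show whether Actg1 lacked a call in CKO cells. Around the 182-base Actb region no number is missing in the WT lists, but those intervals were only 0.585 kb in WT 1 and 17.5 kb in WT 2. With intervals of such different length, the missing numbers do not show that either absence is the better supported.

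**Figure D3:**
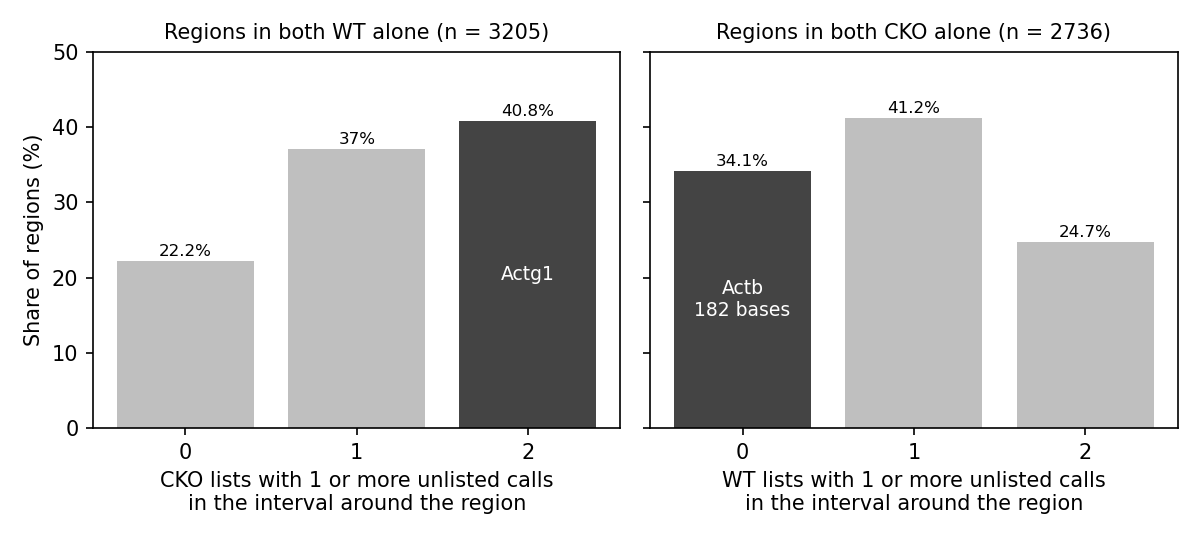
Share of regions (y axis, percent, from 0) by the number of lists of the opposite genotype (x axis) with at least 1 unlisted call between the listed peaks that flank the region, for regions in both WT lists alone (left, n = 3205) and in both CKO lists alone (right, n = 2736). The dark bars hold Actg1, with an unlisted call in both CKO lists like 40.8% of its class, and the 182-base Actb region, with none in either WT list like 34.1% of its class. The bars take no account of the length of the interval.

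The other loci given here, closest to Actb or Actg1 in covered bases over the 4 lists, did not carry peaks of a like rank. This contrast follows from the choice: the genes were chosen by peak scores of these same lists, the loci by covered bases alone. It therefore shows nothing further about either gene. The closest to Actb, by the mean absolute difference in covered bases, was chr1:133547618-133555008 on the minus strand. Its difference was 38.25 bases per list, with 535, 410, 571 and 542 covered bases in WT 1, WT 2, CKO 1 and CKO 2, and its best peak stood at rank 3207, 1310, 6330 and 12283. Next came chr11:100210739-100212886 on the plus strand and chr14:75997758-76014134 on the minus strand, at 44.0 and 45.5 bases per list. In the same order of lists, the best peak of the chr11 locus stood at rank 2657, 6388, 4438 and 15920. That of the chr14 locus stood at rank 19041, 8981, 3635 and 2211. The closest to Actg1 was chr6:127116086-127116214 on the minus strand, at 0.5 bases per list, with 129 covered bases in each WT list and 0 in CKO. Its WT peaks stood at rank 24148 and 15121. Next came chr17:51332102-51332232 on the minus strand and chr10:84503186-84503313 on the plus strand, at 1.5 and 2.0 bases per list. In WT 1 and WT 2, the peak of the chr17 locus stood at rank 17073 and 19295. That of the chr10 locus stood at rank 20678 and 18044, and both loci had 0 covered bases in CKO. These loci were not named, for want of an mm39 annotation, and the likeness is a description over 4 lists.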

How the data were processed

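The deposited files are 4 peak lists in BED format, 1 per IP sample and its input; genotype and replicate number come from the sample labels that carry the same library code. Per the submitters' processing notes, the tools were MACS2 2.2.7.1, STAR 2.7.8a and fastp 0.20.1, with GRCm39 (mm39) as the genome. Peaks were called for IP over input, per the labels. The score of each peak is the authors' deposited value; the sources used here do not state its MACS2 quantity, how peaks were restricted to mRNA or where the strand comes from. Positions are printed counting from 1, and distances between peaks are in genomic bases, since introns could not be taken out.

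Members and lists were chosen with earlier results of these data known. The rule for naming took both genes with every peak and, per gene, the 3 loci closest in covered bases. Peaks were merged into regions at 1 shared base on the same strand and into loci across gaps of up to 5000 bases. Unlisted calls are the peak numbers missing between the listed peaks of either strand around a place; numbers followed genome order for 100.0% of neighbouring peaks in every list. The merging and the count of missing numbers were tested on simulated data. Whether replicate numbers pair the lists was not tested, since the labels tie no animal or day to a number. The planned lists of actin-binding genes and cell type markers need an mm39 annotation and were not analysed. Python 3.11.15 with numpy 2.4.6, pandas 2.3.3 and matplotlib 3.10.9 was used.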

Additional observations from a re-analysis of the deposited data

How the results depend on the processing

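Keeping the top 50% of each list, equal numbers of peaks, or peaks of 50 bases or more changed nothing in Actb or Actg1; the settings on score could not change it, because the genes were chosen for high-ranked peaks. Leaving out 1 list gave a difference (CKO minus WT) of 0 (without WT 2) to 1 (without WT 1) Actb peaks, and of -129 to -127 covered bases for Actg1. It gave 1 to 2 regions in both WT lists alone; the count of 2 came without WT 2, when the 97-base Actb region of WT 1 counts as such. Merging across 200 bases, added after the data had been seen, left 0 regions in both CKO lists alone. With the replicate number as a block, the Actb differences were 0.5 peaks and 154.5 bases and those of Actg1 -1 peak and -128 bases, as without it. The number of loci with more peaks in both WT lists was 1936, came to 1243 when the lower-scored 50% of each list was dropped, 1791 with equal numbers of peaks and 1685 for peaks of 50 bases or more, and was 3331 to 6596 with 1 list left out, when a single list stands for its genotype. Since the depth is unknown, a missing peak and too few reads cannot be told apart.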
